A study of Mus musculus with 10 samples.

Results

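Polycomb group genes encode the chromatin proteins that keep developmental genes silent, and 10 of them were followed here: Ezh1, Ezh2, Eed, Suz12, Bmi1, Ring1, Rnf2, Cbx2, Cbx7 and Phc1. They were taken by name as core members of the Polycomb complexes, and make up 10 of the 18193 mouse genes measured. Together they are represented by 27 of 34945 named probe sets, and each gene is described by its probe set of highest mean over all 10 arrays, with the others as a check. RNA came from bone marrow cells of C57BL/6 mice aged 5 to 6 weeks. After lineage depletion and Sca1 selection the cells were kept with the cytokines IL-3 and SCF at 10 ng/ml each and IL-6 at 20 ng/ml. All 3 groups went through the same 2 rounds of transduction with the MigR1 retrovirus, which carries a GFP marker. By the labels, the virus encoded AML1/ETO in 3 samples, AML1/ETO with the substitution W692A in 4 samples, and GFP alone in 3 samples, and below AML1/ETO, W692A and GFP stand for the arrays so labelled. AML1/ETO is the human leukaemia fusion of the DNA-binding part of RUNX1 with the corepressor ETO, here made from a viral vector and not from the mouse locus. The substituted tryptophan lies in the MYND domain of ETO, a zinc-binding fold that contacts corepressors. At 48 hours after the second transduction 25000 live, GFP-positive cells with the surface pattern Lin- Sca1+ cKit+ were sorted per sample, and 50 ng of RNA went through 2 amplification rounds before 1 array was hybridised. Transductions were independent, but the sources used here do not say whether samples came from different mice, so p-values measure only the spread between these samples.

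Polycomb proteins act mainly as 2 complexes. Polycomb repressive complex 2 (PRC2) methylates lysine 27 of histone H3: EZH2 or its relative EZH1 is the methyltransferase, EED binds the finished mark and stimulates the enzyme, and SUZ12 holds the complex together. Polycomb repressive complex 1 (PRC1) puts ubiquitin on histone H2A: RING1 and RNF2 (also called RING1B) are the ligases, BMI1 is their partner, CBX2 and CBX7 read the methyl mark through a chromodomain, and PHC1 polymerises through its SAM domain. In blood, Bmi1 is known for the self-renewal of stem cells, and EZH2 is the methyltransferase of dividing cells whereas EZH1 is known from resting ones.

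Promoter sequence is shown for the 4 PRC2 genes, since these carry the clearest differences between groups. RefSeq promoters of build GRCm38.p6 were found by symbol for 9 of the 10 genes (not Cbx2), and the 250 bases before each annotated start are printed 5′ to 3′ on the strand of the gene. They lie at chr6:47595031-47595280 (minus strand) for Ezh2, chr7:89980977-89981226 (minus strand) for Eed, chr11:79992856-79993105 (plus strand) for Suz12 and chr11:101226464-101226713 (minus strand) for Ezh1. Capitals mark matches to the letters searched on both strands: the E2F forms TTTCCCGC, TTTGGCGC, TTTCGCGC and TTTGCCGC, the RUNX form TGTGGT and the ETS form CCGGAAGT.
Ezh2: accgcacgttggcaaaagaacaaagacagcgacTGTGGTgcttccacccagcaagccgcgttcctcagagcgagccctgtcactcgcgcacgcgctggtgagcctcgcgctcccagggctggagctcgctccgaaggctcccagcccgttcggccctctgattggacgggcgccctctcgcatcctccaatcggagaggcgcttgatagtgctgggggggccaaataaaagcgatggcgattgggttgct
Eed: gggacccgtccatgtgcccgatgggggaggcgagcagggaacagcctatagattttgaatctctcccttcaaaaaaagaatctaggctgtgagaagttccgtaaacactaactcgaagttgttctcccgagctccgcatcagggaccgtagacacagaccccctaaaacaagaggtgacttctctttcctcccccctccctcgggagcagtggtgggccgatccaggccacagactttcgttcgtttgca
Suz12: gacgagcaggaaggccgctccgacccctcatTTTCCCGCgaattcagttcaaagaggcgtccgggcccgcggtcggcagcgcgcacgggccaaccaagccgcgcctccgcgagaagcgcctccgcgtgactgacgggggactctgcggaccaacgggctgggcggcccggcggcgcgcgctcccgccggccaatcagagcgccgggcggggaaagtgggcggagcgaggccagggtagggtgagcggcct
Ezh1: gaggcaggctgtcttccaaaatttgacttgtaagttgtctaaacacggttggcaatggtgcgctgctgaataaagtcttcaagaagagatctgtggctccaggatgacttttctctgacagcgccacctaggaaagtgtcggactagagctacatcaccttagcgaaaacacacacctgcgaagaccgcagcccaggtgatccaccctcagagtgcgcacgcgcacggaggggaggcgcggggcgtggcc
The GC content of these stretches was 63.6% for Ezh2, 54.4% for Eed, 73.6% for Suz12 and 55.2% for Ezh1. In Suz12 the form TTTCCCGC stood at positions -219 to -212 from the start, and in Ezh2 the RUNX form stood at -217 to -212. No other match was found in the 9 promoters, and no 2 matches overlapped. Of all 32851 promoters of the same length, 1.86% held an E2F form, 14.0% the RUNX form and 2.88% the ETS form, against 1, 1 and 0 of the 9 Polycomb promoters. These are matches of letters, and no binding was measured.

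Values are log2 intensities. A bound of 2.04 stands for background: it is the highest signal that any of 27 bacterial control probe sets reached on an array, and the next brightest of these sets reached 0.84. The 2 genes joined in the fusion gave unlike answers on the labels. Runx1 was higher with AML1/ETO (6.61 to 6.89) and with W692A (6.67 to 7.09) than with GFP (5.81 to 5.90). Runx1t1, the mouse gene of ETO, had 3.13, 2.10 and 3.13 with AML1/ETO, 0.86, 0.53, 0.55 and 0.59 with W692A, and 1.03, 0.42 and 0.50 with GFP. It passed the bound on all AML1/ETO arrays and on no W692A or GFP array, and W692A was at least 1.68-fold lower than AML1/ETO (limma adjusted p = 6.84e-06). That value is from the brightest of 6 probe sets of Runx1t1. For AML1/ETO minus GFP the others gave log2 differences of 2.01, 1.59, 0.39, -0.06 and -0.01, most of them with values below the bound. On this gene the W692A arrays look like GFP. A construct with 1 substitution carries the same ETO part, so this would go against their label only if the probe set reads the human insert. Whether the mouse probe sets read the human insert or the mouse gene was not tested, and every direction given for W692A rests on the label.

 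Of the sorted surface markers, Kit was below the bound on all 10 arrays (0.95 to 1.97) and Ly6a, which encodes Sca1, was not analysed here. Other stem cell genes were present, such as Hlf (8.41 to 8.42 with AML1/ETO, 7.27 to 7.52 with W692A and 3.71 to 4.36 with GFP). The Gapdh control, read at its 3′ minus its 5′ end as a sign of RNA length, was 4.01 to 5.04 with AML1/ETO, 3.81 to 4.17 with W692A and 4.83 to 4.99 with GFP. The 18S ribosomal RNA signal was 8.18 to 8.65 with AML1/ETO, 8.56 to 8.996 with W692A and 7.74 to 8.13 with GFP. Both W692A ranges lie apart from those of GFP, and so does the 18S range of AML1/ETO. In the Gapdh measure AML1/ETO replicates 1 and 2 (4.08 and 4.01) lie below all GFP arrays, and AML1/ETO replicate 3, at 5.04, stands beside them.

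**Figure D1:**
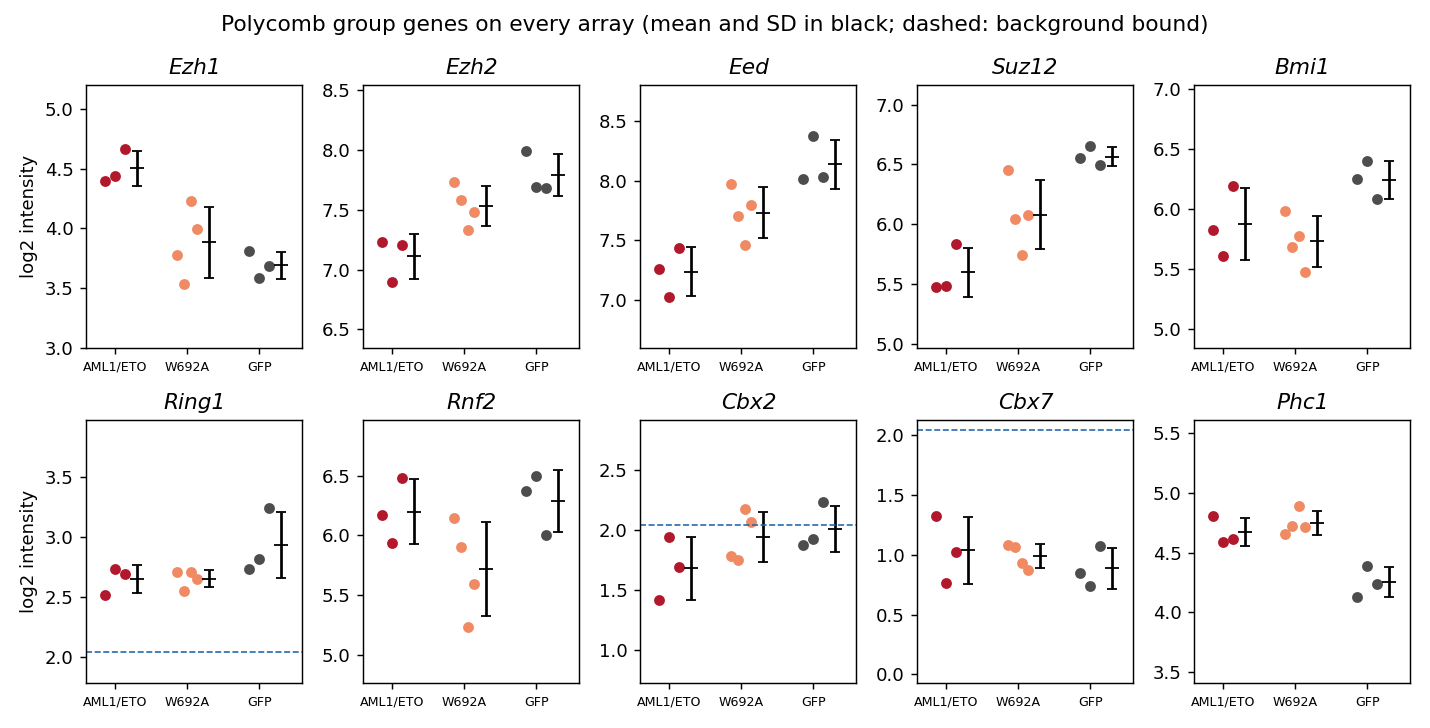
Log2 intensity of the 10 Polycomb group genes on every array (y axis, 2.2 units tall in each panel but with different centres) for AML1/ETO (3 arrays), W692A (4) and GFP (3). Points are arrays, black marks are the mean and SD, and the dashed line is the background bound of 2.04. Ezh2, Eed and Suz12 are lowest with AML1/ETO, Ezh1 is highest there, and Phc1 is higher with either construct than with GFP.

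The core of PRC2 changed in opposite directions with AML1/ETO. Ezh2, Eed and Suz12 fell by 1.60-fold to 1.95-fold against GFP, whereas Ezh1 rose by 1.75-fold. With W692A the same 4 genes lay between the other groups on average, and of them only Suz12 passed the test against GFP.

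Ezh2, the methyltransferase of dividing cells, had log2 intensities of 7.23, 6.90 and 7.21 on the AML1/ETO arrays, 7.73, 7.58, 7.33 and 7.48 on the W692A arrays, and 7.99, 7.69 and 7.68 on the GFP arrays. The AML1/ETO arrays were below all others, while W692A and GFP overlapped. The AML1/ETO mean differed from GFP by -0.68 ± 0.142 on the log2 scale (SE, limma adjusted p = 0.00173), which is 1.60-fold lower. W692A minus GFP was -0.26 (95% confidence interval -0.54 to 0.03, limma adjusted p = 0.249), and W692A exceeded AML1/ETO by 0.42 ± 0.133 (limma adjusted p = 0.0349). The probe set used is the only one of Ezh2 on the array.

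Eed, the subunit that binds the methyl mark, had 7.26, 7.02 and 7.44 with AML1/ETO, 7.97, 7.70, 7.46 and 7.79 with W692A, and 8.01, 8.37 and 8.03 with GFP. The 3 groups did not overlap anywhere, in the order AML1/ETO lowest and GFP highest, although the top W692A array was only just under the lowest GFP one. Between AML1/ETO and GFP the log2 difference was -0.90 ± 0.156 (SE, limma adjusted p = 0.000371), a 1.86-fold lower level. For W692A minus GFP it was -0.41 (95% confidence interval -0.72 to -0.09), which missed the threshold after adjustment (limma adjusted p = 0.0815) and passed it without W692A replicate 1 (-0.48, limma adjusted p = 0.0434). W692A exceeded AML1/ETO by 0.49 ± 0.146 (limma adjusted p = 0.0252).

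Suz12, the scaffold of PRC2, had 5.48, 5.48 and 5.84 with AML1/ETO, 6.45, 6.04, 5.75 and 6.08 with W692A, and 6.55, 6.65 and 6.49 with GFP. Both constructs were below every GFP array, and W692A replicate 3 overlapped the AML1/ETO arrays. Its fall with AML1/ETO was the steepest of the 10 genes, with a log2 difference of -0.97 ± 0.162 (SE, limma adjusted p = 0.000277) or 1.95-fold. With W692A it was 1.40-fold lower than with GFP (-0.49 ± 0.152, limma adjusted p = 0.0435), and 1.39-fold higher than with AML1/ETO (0.48 ± 0.152, limma adjusted p = 0.0356).

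Suz12 has 5 other probe sets, and neither of those that exceeded the bound shared this pattern. A second set lay above the bound on all arrays (2.98 to 3.29 with AML1/ETO, 2.98 to 4.72 with W692A and 2.38 to 3.38 with GFP). Its log2 differences were 0.17 for AML1/ETO minus GFP (limma adjusted p = 0.816 over all probe sets) and 0.74 for W692A minus GFP (0.187). Another set was above the bound on 9 of 10 arrays and gave -0.27 (0.737) and 0.72 (0.256). W692A replicate 1 was the brightest array for both, at 4.72 and 4.18. The other 3 sets were below the bound on every array, and 1 of them had the group means in the order of the set used (0.41 with AML1/ETO, 0.68 with W692A and 1.05 with GFP) and passed between AML1/ETO and GFP (-0.64, limma adjusted p = 0.00801). With the mean of all probe sets of a gene in place of the brightest, Suz12 no longer passed between AML1/ETO and GFP (-0.33, limma adjusted p = 0.135), and for W692A minus GFP the sign turned (0.04, limma adjusted p = 0.893).

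Ezh1, the methyltransferase known from resting cells, was the PRC2 gene that rose. It had 4.40, 4.44 and 4.67 with AML1/ETO, 3.78, 3.53, 4.23 and 4.00 with W692A, and 3.81, 3.58 and 3.69 with GFP. All AML1/ETO arrays were above all others, and W692A overlapped GFP, with 2 of its 4 arrays above the GFP range. AML1/ETO minus GFP was 0.81 ± 0.160 (SE, limma adjusted p = 0.00112), a 1.75-fold higher level. W692A minus GFP was 0.19 (95% confidence interval -0.13 to 0.51, limma adjusted p = 0.490), and W692A was 1.53-fold lower than AML1/ETO (-0.62 ± 0.150, limma adjusted p = 0.00780). Its 3 other probe sets were below the bound on every array, and with the mean of all its probe sets the W692A minus AML1/ETO difference no longer passed (-0.12, limma adjusted p = 0.426).

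Set against each other on the same array, Ezh1 minus Ezh2 can be followed as a shift from the GFP mean. That shift averaged 1.49 ± 0.195 log2 units with AML1/ETO (SD, n = 3, range 1.27 to 1.64) and 0.45 ± 0.438 with W692A (SD, n = 4, range 0.05 to 0.99), while single GFP arrays lay between -0.09 and 0.10. AML1/ETO arrays stood apart from the rest, and of the W692A arrays 1 lay inside the GFP range and the other 3 above it. It is a description without a test, and says nothing of which gene had more transcript.

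The ligases of PRC1 gave no call with their brightest probe sets. Ring1 was dim, with 2.51, 2.73 and 2.69 on the AML1/ETO arrays, 2.70, 2.55, 2.70 and 2.65 on the W692A arrays, and 2.73, 2.82 and 3.25 on the GFP arrays. Values with either construct were below those with GFP, but the highest AML1/ETO and the lowest GFP arrays agree to 2 decimals. The log2 differences from GFP were -0.28 with AML1/ETO (95% confidence interval -0.58 to 0.01, limma adjusted p = 0.160) and -0.28 with W692A (-0.56 to 0.00, limma adjusted p = 0.188).

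Rnf2, the main ligase of PRC1, had 6.17, 5.94 and 6.48 with AML1/ETO, 6.15, 5.90, 5.24 and 5.59 with W692A, and 6.37, 6.50 and 6.00 with GFP. AML1/ETO overlapped GFP, and 3 of the 4 W692A arrays were below every array of the other groups. W692A minus GFP was -0.57 (95% confidence interval -0.99 to -0.15), which missed the threshold (limma adjusted p = 0.0701). It passed without W692A replicate 1 (-0.71, limma adjusted p = 0.0204) and without GFP replicate 3 (-0.71, limma adjusted p = 0.0466). AML1/ETO minus GFP was -0.09 (-0.54 to 0.36, limma adjusted p = 0.832). W692A minus AML1/ETO was -0.48 (-0.90 to -0.06, limma adjusted p = 0.113), and passed without W692A replicate 1 (-0.62, limma adjusted p = 0.0306).

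A second probe set of Rnf2, dimmer but above the bound on all arrays, told otherwise. It had 4.89, 4.76 and 4.62 with AML1/ETO, 4.38, 3.93, 3.95 and 4.32 with W692A, and 3.87, 4.26 and 3.88 with GFP. Here AML1/ETO was above all other arrays and W692A overlapped GFP. In a fit over all probe sets it rose by 0.76 ± 0.156 with AML1/ETO against GFP (SE, limma adjusted p = 0.00207), and W692A was lower than AML1/ETO (-0.61 ± 0.146, limma adjusted p = 0.00895). The 2 probe sets of Rnf2 thus disagree on AML1/ETO, and which transcripts each one reads was not tested.

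Bmi1, the partner of the ligases, had 5.82, 5.61 and 6.20 with AML1/ETO, 5.99, 5.68, 5.78 and 5.47 with W692A, and 6.25, 6.40 and 6.09 with GFP. Every W692A array was below every GFP array, and AML1/ETO replicate 3 reached into the GFP range. W692A was 1.43-fold lower than GFP (-0.52 ± 0.154, SE, limma adjusted p = 0.0355). AML1/ETO minus GFP was -0.37 (95% confidence interval -0.72 to -0.02, limma adjusted p = 0.118), and it passed without AML1/ETO replicate 3 (-0.53, limma adjusted p = 0.0267). The difference between W692A and AML1/ETO was -0.15 (-0.48 to 0.18, limma adjusted p = 0.615), so that the fall with W692A is not shown to differ from that with AML1/ETO. The second probe set of Bmi1 fell with W692A as well (-0.95 ± 0.240, SE, limma adjusted p = 0.0191) and gave -0.30 with AML1/ETO (0.507).

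**Figure D2:**
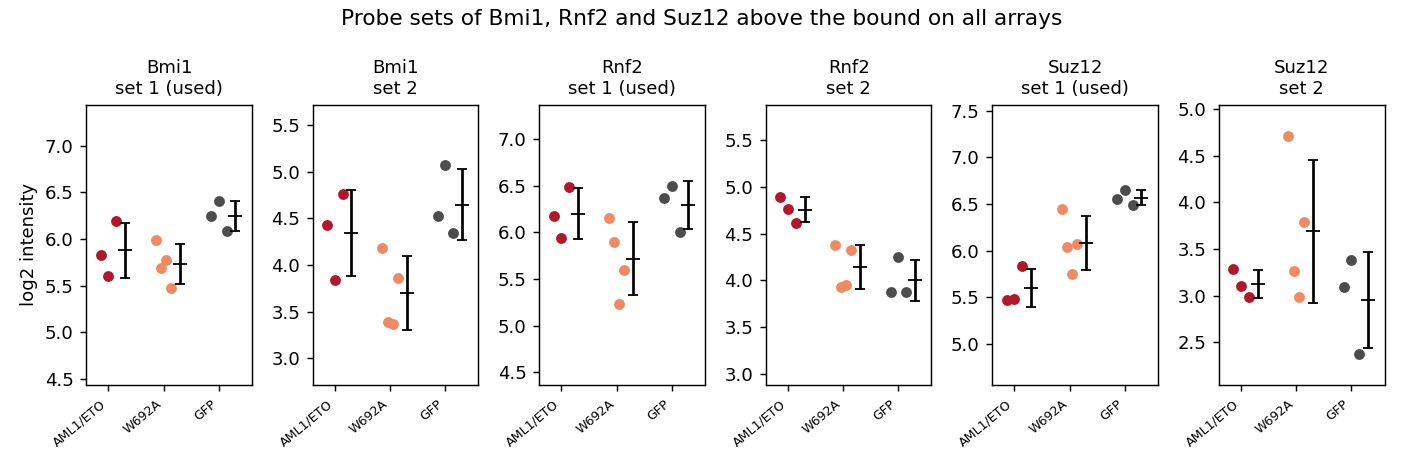
Log2 intensity (y axis, 3 units tall in each panel) of the probe sets of Bmi1, Rnf2 and Suz12 that exceeded the bound on all arrays, for AML1/ETO (3 arrays), W692A (4) and GFP (3), with the mean and SD in black. Set 1 is the brightest and the one used. The sets of Bmi1 run alike, whereas set 2 of Rnf2 is highest with AML1/ETO and set 2 of Suz12 has no order of the groups, with W692A replicate 1 at 4.72.

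The readers of the methyl mark were at background. Cbx7 was below the bound on all arrays (0.76 to 1.32 with AML1/ETO, 0.87 to 1.08 with W692A and 0.74 to 1.07 with GFP), as were its 2 other probe sets. Cbx2 passed the bound on 3 of 10 arrays (1.41 to 1.94 with AML1/ETO, 1.75 to 2.17 with W692A and 1.88 to 2.23 with GFP). Values at background cannot show whether these genes changed, and neither passed in any comparison.

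Phc1, the polymerising subunit, was the PRC1 gene that rose with either construct. It had 4.80, 4.59 and 4.61 with AML1/ETO, 4.66, 4.72, 4.89 and 4.71 with W692A, and 4.13, 4.38 and 4.24 with GFP. Every array of both constructs was above every GFP array, and the constructs overlapped. Phc1 was 1.34-fold higher with AML1/ETO (0.42 ± 0.120, SE, limma adjusted p = 0.0156) and 1.41-fold higher with W692A (0.49 ± 0.113, limma adjusted p = 0.00782), in comparisons that share the GFP arrays. The difference between the constructs was 0.08 (95% confidence interval -0.16 to 0.32, limma adjusted p = 0.733). Against GFP, the AML1/ETO call was lost without GFP replicate 1 (limma adjusted p = 0.0689) or without AML1/ETO replicate 1 (0.0796).

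Counted together, 5 of the 10 genes passed between AML1/ETO and GFP, where 28.6% of all genes passed. Of these, 2 rose (12.9% of all genes did) and 3 fell (15.8% of all genes). Between W692A and GFP 3 passed, against 14.5% of all genes, with 1 rise (5.45% of all genes) and 2 falls (9.07%). Between W692A and AML1/ETO 4 passed, against 20.7% of all genes, with 3 higher in W692A (9.61% of all genes) and 1 lower (11.1%). With 10 genes these counts are few, and whether they exceed the shares over all genes was not tested. Shares over all genes, here and below, include many genes at background. Of the 18193 genes 8820 had a group mean above the bound, and of the 10 members 8 did. Without the 40% dimmest genes, 5135 of 10916 passed between AML1/ETO and GFP. In that setting 2746 passed between W692A and GFP and 3810 between W692A and AML1/ETO. The median log2 difference of the 10 was -0.31 for AML1/ETO minus GFP, -0.27 for W692A minus GFP and 0.04 for W692A minus AML1/ETO, beside -0.02, 0.01 and 0.03 over all genes.

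**Figure D3:**
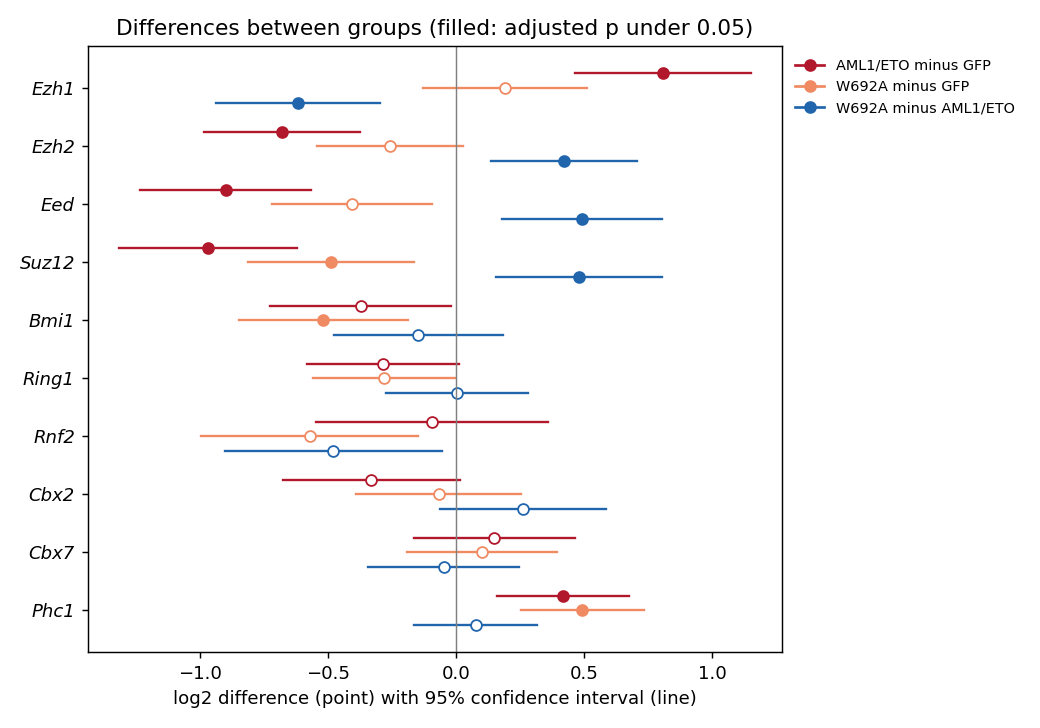
Log2 difference (x axis) with its 95% confidence interval for each Polycomb group gene in AML1/ETO minus GFP, W692A minus GFP and W692A minus AML1/ETO. Filled points passed the adjusted threshold of 0.05. Ezh1 is positive and Ezh2, Eed and Suz12 are negative for AML1/ETO minus GFP, and these 4 have the opposite sign for W692A minus AML1/ETO.

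The 3 comparisons use each group more than once, and the difference between the constructs is fixed by the others, so their agreement is not separate evidence. Ezh2, Eed and Ezh1 passed between AML1/ETO and GFP with any 1 array left out, as did Suz12. Calls between W692A and GFP were less firm: Suz12 failed on leaving out 8 of the 10 arrays in turn, all but AML1/ETO replicate 3 and W692A replicate 1 (limma adjusted p from 0.0505 to 0.143). Bmi1 failed without GFP replicate 1, GFP replicate 2, W692A replicate 2, 3 or 4 (0.0528 to 0.145). With the Gapdh or the 18S control of each array as a covariate, 0 of the 10 genes passed between W692A and GFP. Both controls separate the W692A arrays from the GFP arrays, and 18S also separates AML1/ETO from GFP. Where a control separates the groups compared, here and below, covariate and construct cannot be told apart. A call lost there does not show which of them a difference follows. Both controls overlapped between W692A and AML1/ETO, and Gapdh overlapped between AML1/ETO and GFP. The cause of a call lost in those fits was not tested. Between W692A and GFP the difference of Phc1 stayed near its size (0.42 with Gapdh and 0.41 with 18S, against 0.49). Those of Suz12 and Bmi1 were smaller with Gapdh (-0.16 and -0.22) and larger with 18S (-0.88 and -0.72). With 18S 0 passed between W692A and AML1/ETO, where Ezh1 had -0.46, Ezh2 0.30, Eed 0.28 and Suz12 0.31. Between W692A and AML1/ETO, Ezh1 passed with any array left out. Ezh2 failed there without AML1/ETO replicate 2 or 3 or W692A replicate 1, 2 or 4 (0.0511 to 0.184), Eed without AML1/ETO replicate 1 or 2 or W692A replicate 1 or 4 (0.0628 to 0.137), and Suz12 without AML1/ETO replicate 1 or 2 or W692A replicate 1, 2 or 4 (0.0588 to 0.138).

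Genes of cell division moved in the same groups as Ezh2, Eed and Suz12. Of 19 S phase genes measured, 18 fell with AML1/ETO against GFP and 0 rose (median log2 difference -1.05, all but Mcm4 at -0.44, limma adjusted p = 0.135), and all 19 G2 and M phase genes fell (median -1.04). With W692A 2 and 4 of them fell against GFP, and 18 and 19 were higher in W692A than in AML1/ETO. Among the falls with W692A, those of Pcna, Prim1, Aurkb, Kif11 and Kif20a ended with the Gapdh or the 18S covariate (limma adjusted p from 0.199 to 0.929). Kif11 also failed there with the mean of all its probe sets (-0.15, 0.609). Of all genes 15.8% fell with AML1/ETO against GFP, 9.07% fell with W692A against GFP and 9.61% were higher in W692A than in AML1/ETO. The S phase list averaged 6.31 to 6.73 with AML1/ETO, 7.29 to 7.40 with W692A and 7.48 to 7.60 with GFP. The G2 and M phase list averaged 5.21 to 5.36 with AML1/ETO, 6.05 to 6.25 with W692A and 6.27 to 6.41 with GFP. As an example, Prim1, a subunit of the primase that starts DNA synthesis, was 2.74-fold lower with AML1/ETO than with GFP (-1.45 ± 0.134, SE, limma adjusted p = 8.59e-07). In these bulk samples, fewer dividing cells and less RNA per cell cannot be told apart, and the part of cell division in the Polycomb values was not tested.

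**Figure D4:**
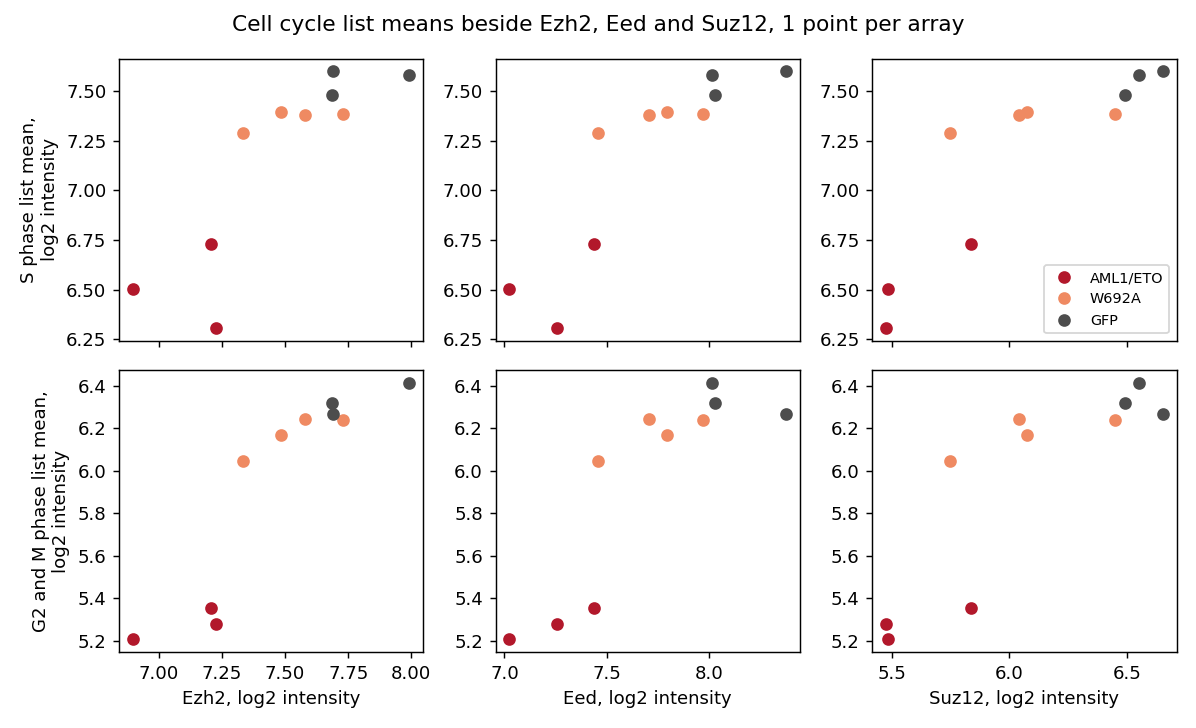
Mean log2 intensity of the S phase list and of the G2 and M phase list (19 genes each, y axes) against the log2 intensity of Ezh2, Eed and Suz12 (x axes), with 1 point per array for AML1/ETO (3), W692A (4) and GFP (3). AML1/ETO arrays are the lowest on the y axis of every panel, with S phase means of 6.31 to 6.73, and the lowest on the x axis for Ezh2 and Eed, while for Suz12 they overlap W692A there.

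Cell-type markers also differed between the groups. Against GFP, 12.9% of all genes rose and 15.8% fell with AML1/ETO, and 5.45% rose and 9.07% fell with W692A. Of 13 measured stem and multipotent progenitor markers 9 rose with AML1/ETO (2 of these, Kit and Fgd5, at background) and 7 with W692A against GFP, and the list averaged 5.56 to 5.63 with AML1/ETO, 4.83 to 5.08 with W692A and 4.27 to 4.42 with GFP. The 1 marker of this list that fell with each construct was Flt3, a cytokine receptor of multipotent progenitors (1.95-fold with AML1/ETO, limma adjusted p = 2.80e-05, and 1.94-fold with W692A, 5.72e-05). Of 7 erythroid markers 4 fell with each construct (1.08 to 1.31 with AML1/ETO, 1.28 to 1.43 with W692A and 2.64 to 2.89 with GFP), and 5 of them were below the bound on every AML1/ETO array, 5 on every W692A array and 4 on every GFP array. The neutrophil and granule list, of which 7 of 12 fell and 2 rose with each construct, averaged 4.48 to 5.38 with AML1/ETO, 4.43 to 4.87 with W692A and 5.04 to 5.43 with GFP. With AML1/ETO the falls of Camp, S100a8, S100a9 and Chil3 overlapped GFP, and those of Ngp, Elane and Prtn3 did not. The list mean of AML1/ETO replicate 3 was 5.38, against 4.60 and 4.48 on replicates 1 and 2, and its Chil3 value was 9.86, against 7.61 and 7.15. The 2 that rose were Lcn2 (8.46-fold with AML1/ETO and 1.55-fold with W692A) and Mmp8 (at least 2.56-fold with AML1/ETO and at least 2.33-fold with W692A). Mast cell, basophil and eosinophil markers averaged 4.67 to 5.51 with AML1/ETO, 4.02 to 4.23 with W692A and 4.39 to 4.86 with GFP, and these means hide opposite changes, with 3 of 9 rising and 3 falling with each construct. Hdc, the histamine-forming enzyme, rose 16.6-fold with AML1/ETO and 3.85-fold with W692A, and the mast cell protease Cpa3 8.56-fold with AML1/ETO and 3.48-fold with W692A. The eosinophil granule genes Epx (13.6-fold with AML1/ETO and 17.3-fold with W692A) and Prg3 (7.99-fold with AML1/ETO and 7.91-fold with W692A) fell. Monocyte and macrophage markers averaged 4.83 to 5.14 with AML1/ETO, 4.47 to 4.79 with W692A and 3.82 to 4.04 with GFP, with 5 of 8 rising with AML1/ETO and 4 with W692A. The part of a changed mix of cells in the Polycomb values was not tested.

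The wider Polycomb machinery was read from lists of the genes that work with the 10. Beside the counts of these lists, 12.9% of all genes rose and 15.8% fell with AML1/ETO against GFP. With W692A against GFP 5.45% of all genes rose and 9.07% fell. The other PRC2 list, of histone-binding and accessory subunits, hardly moved with AML1/ETO: of 7 measured, 0 rose and 1 fell (median log2 difference -0.08). The gene that fell was Rbbp7, a histone chaperone that PRC2 shares with other complexes (9.84 ± 0.113 with AML1/ETO and 10.19 ± 0.0835 with GFP, SD, n = 3 each, log2 difference -0.35, limma adjusted p = 0.0286). That call failed without GFP replicate 1 (0.0681), GFP replicate 2 (0.0946) or AML1/ETO replicate 1 (0.131). Its relative Rbbp4 gave -0.12 (0.751) and Jarid2, a targeting subunit, 0.09 (0.733). With W692A, 1 of the 7 rose against GFP, Phf19, a dim reader of methylated lysine whose 4 W692A arrays averaged 2.05, near the bound (limma adjusted p = 0.0443, lost on leaving out 8 of the 10 arrays in turn). Mtf2, its relative, was higher in W692A than in AML1/ETO (0.54, limma adjusted p = 0.0340) with overlapping arrays, and is named here after its value was seen.

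Among 17 other genes of PRC1 and its variants 1 rose and 5 fell with AML1/ETO against GFP, and 1 rose and 4 fell with W692A. With AML1/ETO the 3 largest falls were those of L3mbtl2, Pcgf6 and E2f6, which belong to the variant complex that carries PCGF6, while Mga of the same complex did not pass with AML1/ETO (-0.42, limma adjusted p = 0.100) or W692A (-0.49, 0.0628). L3mbtl2, a reader of methylated histones, had 3.89, 3.89 and 4.19 with AML1/ETO, 4.35, 4.49, 4.45 and 4.36 with W692A, and 5.34, 5.01 and 5.47 with GFP. The 3 groups did not overlap, and it was 2.44-fold lower with AML1/ETO (-1.29 ± 0.138, SE, limma adjusted p = 4.14e-06) and 1.82-fold lower with W692A (-0.86 ± 0.129, limma adjusted p = 0.000357) than with GFP. Pcgf6, which gives the complex its name, had 6.07, 5.80 and 6.00 with AML1/ETO, 6.84, 6.54, 6.57 and 6.53 with W692A, and 7.18, 7.24 and 7.16 with GFP.

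These Pcgf6 values separated all groups too: it was 2.35-fold lower with AML1/ETO (-1.23 ± 0.124, SE, limma adjusted p = 2.03e-06) and 1.49-fold lower with W692A (-0.57 ± 0.116, limma adjusted p = 0.00350), and 1.58-fold higher in W692A than in AML1/ETO (0.66 ± 0.116, limma adjusted p = 0.000703). E2f6, a DNA-binding repressor of the same complex, was 1.63-fold lower with AML1/ETO and 1.36-fold lower with W692A (4.40 ± 0.0845 with AML1/ETO, n = 3, 4.66 ± 0.0649 with W692A, n = 4, and 5.11 ± 0.0603 with GFP, n = 3, SD, limma adjusted p = 0.000133 and 0.00833). Pcgf5, of another variant, was the gene that rose with AML1/ETO, by 1.52-fold against GFP (0.61 ± 0.144, SE, limma adjusted p = 0.00437). In W692A it was 1.51-fold lower than in AML1/ETO (-0.59 ± 0.135, limma adjusted p = 0.00493). Named after their values were seen, Kdm2b, which recruits a variant complex to CpG islands, fell with AML1/ETO (-0.56, limma adjusted p = 0.0337) and with W692A (-0.58, 0.0376), Cbx6 fell with AML1/ETO (-0.32, 0.0343), and Cbx8, which rose with W692A, was at background. With the mean of all its probe sets the W692A difference of Pcgf6 no longer passed (-0.23, 0.129). Between W692A and GFP the calls of these genes ended with the Gapdh or the 18S covariate, at differences of -0.63 and -0.81 for L3mbtl2, -0.53 and -0.93 for Pcgf6, and -0.53 and -0.48 for E2f6 (limma adjusted p from 0.0877 to 0.425).

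The erasers of the PRC2 mark rose. Both measured H3K27 demethylase genes were higher with either construct. Kdm6a (UTX) had 6.73, 6.24 and 6.22 with AML1/ETO, 5.75, 5.96, 5.96 and 5.94 with W692A, and 5.24, 5.23 and 4.95 with GFP, with no overlap between groups. Kdm6b (JMJD3) had 5.23, 5.33 and 5.16 with AML1/ETO, 4.77, 4.97, 4.94 and 4.47 with W692A, and 4.29, 3.91 and 4.15 with GFP. For both genes AML1/ETO was highest and GFP lowest, and Kdm6b did not overlap either.

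Against GFP, Kdm6a rose 2.39-fold with AML1/ETO (1.26 ± 0.148, SE, limma adjusted p = 9.94e-06) and 1.70-fold higher with W692A (0.76 ± 0.139, limma adjusted p = 0.00161). Kdm6b rose 2.18-fold with AML1/ETO (1.12 ± 0.147, limma adjusted p = 2.90e-05) and 1.59-fold higher with W692A (0.67 ± 0.138, limma adjusted p = 0.00388). Both were lower in W692A than in AML1/ETO (-0.50, limma adjusted p = 0.0182, and -0.45, 0.0295). The first of these calls failed without AML1/ETO replicate 1 (0.121), and the second without AML1/ETO replicate 1 (0.0771) or 2 (0.114) or W692A replicate 1 (0.0528) or 4 (0.0920). With the mean of all probe sets of a gene, Kdm6a no longer passed between W692A and GFP (0.17, 0.282), nor Kdm6b between W692A and AML1/ETO (-0.16, 0.376). Both calls between W692A and GFP ended with the Gapdh or the 18S covariate, at 0.56 and 0.71 for Kdm6a and 0.46 and 0.94 for Kdm6b (limma adjusted p from 0.188 to 0.455).

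The PR-DUB and DNA-binding list, which holds the enzymes that remove the PRC1 mark, had 1 rise and 1 fall among 8 with AML1/ETO and none in either direction with W692A. Of all genes 28.6% passed between AML1/ETO and GFP. Bap1, the deubiquitinase, fell 1.27-fold with AML1/ETO (limma adjusted p = 0.0444), a call that failed on leaving out any array but GFP replicate 3 (0.0501 to 0.171). Sfmbt2, named after its value was seen, passed as a rise, with both group means at background. Asxl1, the partner of BAP1, was 1.32-fold higher in W692A than in AML1/ETO (limma adjusted p = 0.0385), which failed without AML1/ETO replicate 2 or 3 or W692A replicate 1, 3 or 4 (0.0649 to 0.144). The Asxl1 call failed too with the mean of all its probe sets (0.11, limma adjusted p = 0.472) and with the Gapdh (0.34, 0.150) or 18S covariate (0.42, 0.148).

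The Trithorax group, which opposes Polycomb and includes enzymes that methylate lysine 4 of histone H3, had calls in both directions. With AML1/ETO 3 of 13 rose and 3 fell, beside 12.9% and 15.8% of all genes. The 3 that rose encode methyltransferases: Kmt2a, a frequent partner in leukaemia fusions, by 1.70-fold (0.77 ± 0.154, SE, limma adjusted p = 0.00120), Kmt2b by 1.32-fold (limma adjusted p = 0.0187) and Kmt2d by 1.27-fold (limma adjusted p = 0.0316). The other Kmt2 and Setd1 genes of the list did not pass (Kmt2c at 0.14, Kmt2e at 0.20, Setd1a at -0.05 and Setd1b at -0.04). The 3 that fell encode subunits common to such methyltransferases: Dpy30 by 1.87-fold (-0.91 ± 0.107, SE, limma adjusted p = 1.01e-05), Wdr5 by 1.57-fold (limma adjusted p = 0.00182) and Rbbp5 by 1.49-fold (limma adjusted p = 0.00236). Ash2l, another shared subunit, did not pass (-0.40, limma adjusted p = 0.0749). With W692A, Kmt2a alone passed against GFP (0.67 ± 0.144, limma adjusted p = 0.00504), and Dpy30 was 1.66-fold higher in W692A than in AML1/ETO (0.73 ± 0.100, limma adjusted p = 9.14e-05). Leaving out arrays ended the calls of Kmt2b (GFP replicate 1, AML1/ETO replicate 2 or 3, 0.0507 to 0.0668) and Kmt2d (GFP replicate 1 or 3 or any AML1/ETO array, 0.0541 to 0.120). The W692A call of Kmt2a ended with the Gapdh (0.27, limma adjusted p = 0.726) or 18S covariate (0.47, 0.613). With the 18S covariate the AML1/ETO calls of Kmt2a, Kmt2b, Kmt2d, Wdr5 and Rbbp5 ended too (limma adjusted p from 0.0596 to 0.353), and with Gapdh those of Kmt2d (0.159) and Wdr5 (0.0536).

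**Figure D5:**
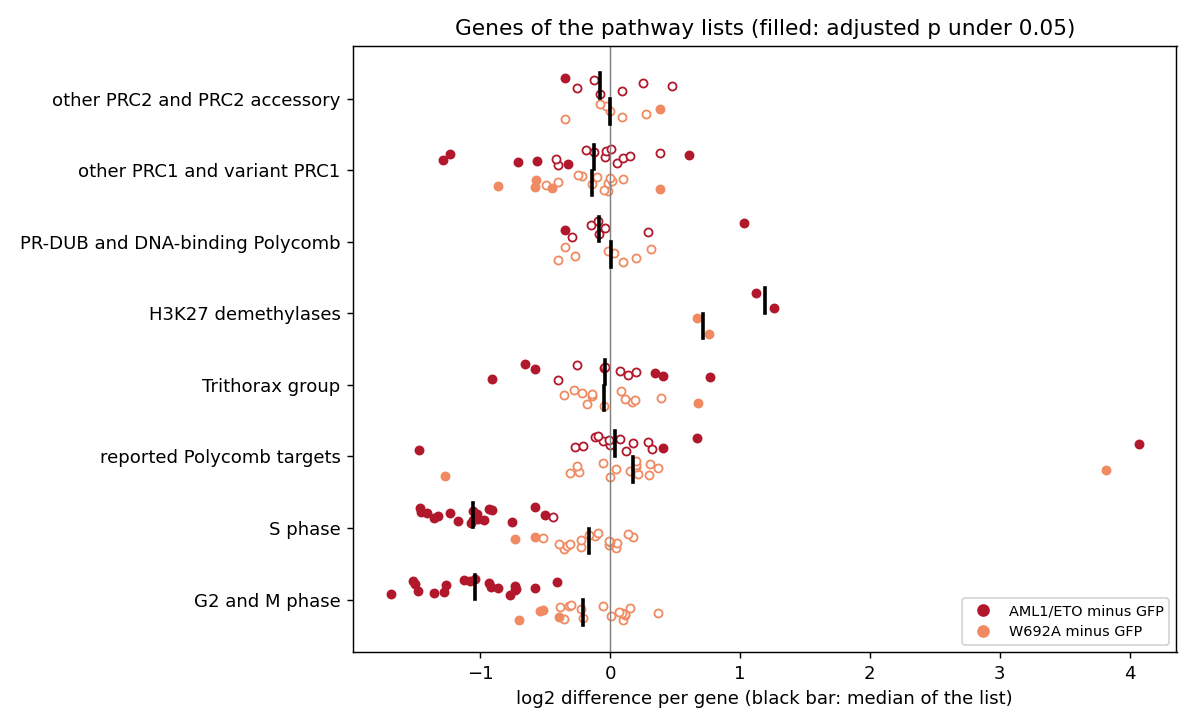
Log2 difference of each measured gene (points, x axis) in 8 lists for AML1/ETO minus GFP (upper row of each list) and W692A minus GFP (lower row). Filled points passed the adjusted threshold of 0.05 and black bars are list medians. The 2 demethylases are positive in both rows, and the S phase and G2 and M phase medians are -1.05 and -1.04 with AML1/ETO.

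Many of the listed genes that Polycomb is known to silence were at background, where no change can be read. Between AML1/ETO and GFP 7 had a group mean above the bound, of which 2 rose and 1 fell. Between W692A and GFP 8 had one, of which 1 rose and 1 fell. Of 16 measured, 3 rose and 1 fell with AML1/ETO and 1 rose and 1 fell with W692A (median log2 differences 0.04 and 0.18), and 9 or 10 of them were below the bound on every array of a group. Beside these counts, 28.6% of all genes passed between AML1/ETO and GFP and 14.5% between W692A and GFP. Hmga2, an architectural chromatin protein of fetal blood stem cells, had 9.97, 9.45 and 9.52 with AML1/ETO, 9.52, 9.36, 9.30 and 9.40 with W692A, and 5.75, 5.44 and 5.54 with GFP. Both constructs were far above GFP and overlapped, at 16.8-fold with AML1/ETO (limma adjusted p = 5.85e-11) and 14.1-fold with W692A (limma adjusted p = 1.69e-10). Igf2bp3, a fetal RNA-binding protein, rose 1.59-fold with AML1/ETO (limma adjusted p = 0.00211). Cdkn1c, an inhibitor of the cell cycle, was at least 1.36-fold lower with AML1/ETO (limma adjusted p = 3.23e-06) and at least 1.36-fold lower with W692A (limma adjusted p = 2.66e-05), each with all its arrays below the bound. Cdkn2a, the classic target of Bmi1, was at background in all groups, and Cdkn2b, which passed as a rise with AML1/ETO, was too.

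Likeness to 3 of the genes was measured as the root mean square difference between gene-centred log2 profiles over the 10 arrays, among the 8820 genes whose mean passed the bound in some group. The genes most like Ezh2 were Cbfb (0.0721), which encodes the partner of RUNX1, Cdv3 (0.0758), Eri1 (0.0794), Eif5 (0.0837) and Tcp1 (0.0891). Cbfb averaged 7.96 with AML1/ETO, 8.34 with W692A and 8.56 with GFP, the same order as Ezh2. Those most like Bmi1 were Cop1 (0.111), Pgrmc1 (0.112), Tmem168 (0.113), Ywhah (0.115) and Zfp874a (0.117). For Cbx7, which was at background, the closest were Setd3 (0.0866), Nop53 (0.113), Ldha (0.115), Bpgm (0.116) and Ddb1 (0.117), and their likeness is that of flat profiles. Arrays of a group share their construct, so these values describe the profiles and carry no test.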

How the data were processed

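For each probe set and array the authors deposited 1 log2 intensity, made with RMA per the submitters' processing notes, which give no version. RMA sets all arrays to 1 distribution of probe intensities and so hides differences in total RNA. No source states the logarithm's base, and base 2 was used because the highest value, 12.77, would pass the range of a 16-bit scanner as a natural logarithm. Of 45101 probe sets, 34945 had 1 gene symbol, and the brightest by mean stood for each of 18193 genes.

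Groups were compared with limma 3.58.1 (R 4.3.3), using lmFit and eBayes on all 10 arrays together, with Benjamini-Hochberg adjustment over all genes and a threshold of 0.05. Other probe sets were read from a fit over all probe sets. Where the dimmer group had an array below the bound, its values were set to the bound and the fold is a lower limit. The fit was tested on simulated data. The number of arrays limits the precision.

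Members, lists and motifs were chosen with earlier results of these data known. Named were the 10 members and, per list and comparison, up to 3 called rises and 3 called falls of largest size whose groups did not overlap, with a group mean above the bound. In addition, the 5 genes most like Ezh2, Bmi1 and Cbx7 were named. Alternatives were a filter on the 40% dimmest genes, other uses of probe sets, 2 further normalizations, array weights, another variance prior, a replicate block, fits of 2 groups, the Gapdh or 18S control as a covariate, and leaving out each array. Some listed genes and cell-type markers were not analysed here. B lymphoid markers averaged 2.44 to 2.65 with AML1/ETO, 2.27 to 2.41 with W692A and 2.81 to 2.93 with GFP, and T and NK lymphoid markers 1.55 to 1.60 with AML1/ETO, 1.62 to 1.75 with W692A and 1.73 to 1.86 with GFP.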

Additional observations from a re-analysis of the deposited data

Results flagged for a closer look

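Of 41 sets of 4 W692A arrays tested, 3 had 1 array far from the other 3, and chance gives about 1 in 20. None was a set of values of the 10 Polycomb group genes. E2f6 was highest on W692A replicate 4 at 4.76, against 4.63 to 4.64 on the other W692A arrays. Kdm6a was lowest on W692A replicate 1 at 5.75, against 5.94 to 5.96. Pcgf6 was highest on W692A replicate 1 at 6.84, against 6.53 to 6.57. In each case all W692A arrays stayed on the same side of the GFP arrays.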

How the results depend on the processing

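Over 21 alternatives, the 10 genes in 3 comparisons kept direction and side of the threshold in 548 cases, lost a call in 56, gained 1 in 7 and changed sign in 16, with no value for Cbx7 under the filter on dim genes. A called difference changed sign in 1 case, Suz12 between W692A and GFP with the mean of all probe sets (0.044). In the other 15 the gene passed in neither fit. Between AML1/ETO and GFP these were Rnf2 with that mean (0.077), with the Gapdh covariate (0.16) and without GFP replicate 2 (0.013) or AML1/ETO replicate 2 (0.039; -0.24 to 0.039 over single arrays left out), and Cbx7 with 18S (-0.16). Between W692A and GFP they were Cbx2 with 18S (0.31) and without GFP replicate 3 (0.043; -0.14 to 0.043), and Cbx7 with 18S (-0.45). Between W692A and AML1/ETO they were Bmi1 without AML1/ETO replicate 3 (0.014; -0.28 to 0.014), Ring1 with 18S (-0.054) and without AML1/ETO replicate 1 (-0.062), W692A replicate 1 (-0.012) or W692A replicate 3 (-0.012; -0.062 to 0.048), and Cbx7 after median subtraction (0.020) and without AML1/ETO replicate 1 (0.094; -0.18 to 0.094). Between AML1/ETO and GFP, Ezh1, Ezh2 and Eed passed in all 21, Suz12 failed with that mean alone, and 4 to 6 genes passed with 1 array left out. There Phc1 failed with the Gapdh (0.37, adjusted p = 0.127) or 18S covariate (0.37, 0.198), against a difference of 0.42. Between W692A and GFP, where 3 passed, 1 passed after a further quantile normalization, 0 with either covariate, and 1 to 5 with an array left out. Between W692A and AML1/ETO, where 4 passed, 1 passed with the mean of all probe sets, 0 with the 18S covariate and 1 to 4 with an array left out. The cause of these losses was not tested, and where a control separates the groups its covariate cannot be told apart from the construct. Other named genes kept their call in 941 cases and lost it in 109.

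With the replicate block, 5 genes passed between AML1/ETO and GFP, 1 between W692A and GFP and 2 between W692A and AML1/ETO. Same-numbered arrays correlated from -0.13 to 0.46 in their deviations from the group means, and differently numbered ones from -0.40 to 0.32. All pairs of replicate 1 arrays were positive (0.29, 0.26 and 0.46). The main fit did not pair the samples by number.

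Over all genes, 506 passed between W692A and GFP with the Gapdh covariate and 289 with 18S, against 2642. With 18S 3358 passed between AML1/ETO and GFP, against 5207, and 2500 between W692A and AML1/ETO, against 3765. Further quantile normalization gave 1262 higher and 1352 lower with W692A against GFP, in place of 991 and 1651. Median subtraction gave 2220 higher and 1682 lower in W692A than in AML1/ETO, in place of 1748 and 2017. Cbx2, Cbx7 and other genes at background limit what can be read from their values.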
